A study of Mus musculus with 6 samples.

Results

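The genes described here are 8 transcription factors and cofactors that set or maintain muscle fibre type: Six4, Eya1, Eya4, Tbx15, Sox6, Maf, Mafa and Prox1. They were chosen by name, and each of the 8 had 1 row among the 49366 promoter windows that were counted. Chromatin accessibility was measured by ATAC-seq, a method in which a transposase cuts open DNA and tags it for sequencing, in mouse skeletal muscle nuclei sorted for PCM1, a protein that surrounds the nuclei of muscle fibres. Both groups came from male C57BL/6J mice, 8 weeks old, whose gastrocnemius and tibialis anterior (TA) muscles received an AAV6 vector and were taken 28 days later. One group carried AAV6:Yap-shRNA, a vector for a hairpin RNA against the transcriptional coactivator Yap, and the other, in the opposite limb, AAV6:LacZ-shRNA, a control hairpin against a bacterial gene. There were 3 replicates per group, and each replicate pooled 4 gastrocnemius and 4 TA muscles, so a p-value here measures the spread between pools rather than between single animals. The fibre types of the pooled muscles were mixed together, and a change in the share of a fibre type cannot be told apart from a change within a type.

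Adult fibres are fast or slow according to the myosins and metabolic enzymes they express, and that choice is held in place by a small group of nuclear factors. Six4 and its relatives bind DNA at MEF3 sites and act with Eya proteins, which do not bind DNA themselves, to keep fast glycolytic genes active. Tbx15 is a T-box factor of glycolytic fibres. The large Maf proteins, Maf and Mafa among them, drive the fast myosin genes, in particular that of the fastest mouse fibres. Sox6 represses slow fibre genes in fast fibres, while Prox1, a homeobox factor also known for specifying lymphatic endothelium, is enriched in slow fibres. Accessibility at the start of such a gene is a common feature of cells that transcribe it, but it is not a measure of its RNA or protein.

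The 6 libraries held between 3326803 and 10319467 counts in promoter windows and between 2588520 and 6871176 in peaks, and all 3 Yap-shRNA libraries were deeper in windows than LacZ-shRNA replicates 1 and 2. No pair of replicates within a group was alike to within sampling noise, with a mean chi-square per window of 1.95 to 5.37. The nuclei carried the marks of muscle fibres. The windows of 8 myofibre markers (Acta1, Ckm, Ttn, Mylpf, Neb, Des, Mstn and Tnnt3) had a median percentile of 99.0 in CPM (counts scaled to equal library size) per kb, against 60.8 for 6 satellite cell markers, 33.7 for 6 fibroblast, 63.8 for 6 endothelial, 68.6 for 4 lymphatic endothelial and 63.4 for 5 macrophage markers. Of the markers fixed for these lists, Ccl21a and Itgam were not analysed here. The summed level of the fibroblast list was 168 to 200 CPM in LacZ-shRNA and 191 to 234 CPM in Yap-shRNA libraries, and that of the lymphatic endothelial list, where Prox1 is also expressed, was 45.2 to 50.7 and 46.6 to 52.8 CPM. The ranges of the groups overlapped in all 6 lists. Single markers with an unadjusted p under 0.05 were Col1a1 (log2 fold change 0.39) and Col3a1 (0.34) of fibroblasts, Csf1r (0.32) of macrophages, Kdr (-0.59) of endothelium and Calcr (-0.37) of satellite cells, none called by edgeR (adjusted p from 0.909 to 0.946), and the groups overlapped only in Col3a1 among these 5. Of all windows, 4.9% had an unadjusted p under 0.05 in edgeR, and 10.1% had groups that did not overlap. The part of other cell types in the results below was not tested. The lowering of Yap itself cannot be seen in counts of open chromatin.

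A promoter window joins the 1 kb flanks of all transcript starts annotated for a gene, so genes with many starts have long windows, and levels were compared between genes only per kb. Levels are CPM scaled by TMM factors (trimmed mean of M values, which correct for library composition). In CPM per kb over the 6 samples, Mafa stood at 38.0 ± 6.02 (SD, n = 6), Maf at 18.0 ± 2.41, Six4 at 17.5 ± 1.93 and Tbx15 at 11.0 ± 1.24. Below them came Eya4 at 8.57 ± 1.07, Sox6 at 7.10 ± 0.765, Eya1 at 6.01 ± 0.619 and Prox1 at 0.426 ± 0.126. The median of all windows was 4.45 CPM per kb, so 7 of the 8 genes were above it. The Prox1 window was below, but it is almost wholly shared with other genes, as described below. Mafa ranked 71 of 49366, a place among the most accessible starts in the table, with Maf at rank 791 and Six4 at rank 861. Maf and Six4 differed by less than the SD of either. Every other step in this order was larger than the SD of both its neighbours, although the ranges of mean ± SD still overlapped between Eya4 and Sox6 and between Sox6 and Eya1. The values depend on the length used. Divided by the flanks of the 5′ start alone, the same counts gave Sox6 67.5, Eya4 38.3 and Mafa 38.0 CPM per kb. Those counts come from the flanks of all starts, so for genes with several starts these quotients are not levels of the 5′ start.

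**Figure D1:**
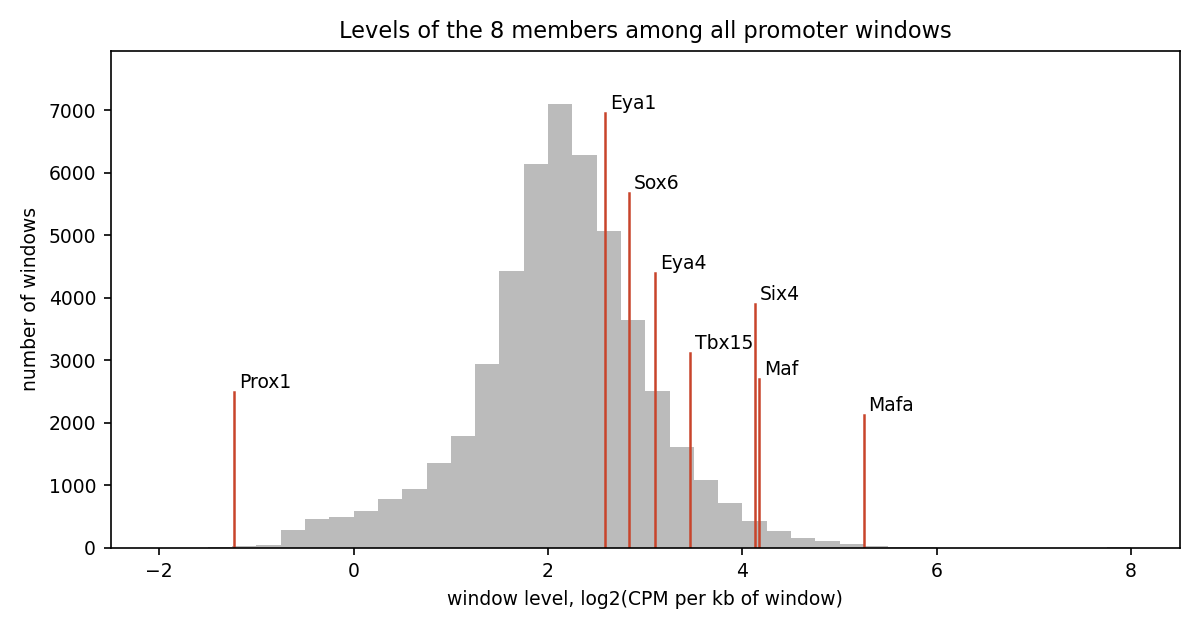
The histogram counts all 49366 promoter windows by level, as log2 of CPM per kb of window on the horizontal axis, and the red lines mark the 8 genes (the height of a line only places its label). Mafa, Maf and Six4 lie in the upper tail, Eya1 (percentile 72.2) and Sox6 (percentile 80.9) to the right of the main bulk's centre and Prox1 at the far lower end.

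The low Prox1 value came with a window that is almost wholly shared. Prox1 lies on the minus strand at chr1:190118035-190170714 (GRCm38), and of the 3.316 kb in its window only 0.418 kb lay outside the windows of Gm28172 and Prox1os, an antisense transcript. The window held 8, 5 and 6 counts in the LacZ-shRNA replicates and 12, 18 and 16 in the Yap-shRNA replicates. The accessible peak that spans the gene's 5′ start, at chr1:190170369-190171102, held 40, 26 and 114 counts in LacZ-shRNA and 79, 91 and 95 in Yap-shRNA libraries, which was 5.0 to 19.0 times the window count. The start of Prox1 thus held reads in all 6 libraries that its window did not count. Per kb of peak, this start peak had 17.8 CPM, beside 17.3 and 23.3 CPM for the start peaks of Eya1. The low window value is therefore not the level of the Prox1 start. The counting program by default leaves out fragments that fall in more than 1 feature, and the study's methods name default settings for counts over whole genes without saying so for the windows. Divided by the unshared length alone, Prox1 came to 3.38 CPM per kb. Sox6 also shares part of its window, with 1110004F10Rik, Gm45025 and Sox6os, and came to 9.41 CPM per kb over the 14.358 kb it does not share.

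The 8 genes have 41 annotated starts, and an accessible peak lay within 1 kb of 28 of them. For Six4 (2 starts), Maf (2), Mafa (1) and Prox1 (3), every start had a peak. Eya1 had one at 8 of 9 starts, Eya4 at 5 of 8, Tbx15 at 2 of 3 and Sox6 at 5 of 13. CpG content went with this. The ratio of observed to expected CpG within 500 bp of the start ran from 0.132 to 0.833 with a median of 0.678 at the starts with a peak, and from 0.097 to 0.364 with a median of 0.236 at the 13 without. These starts share genes and often each other's sequence, so the values are a description.

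The gene in which open and closed starts were most mixed was Sox6, the repressor of slow fibre genes, which spans 567.925 kb of the minus strand at chr7:115470872-116038796. Its 5 open starts all lay at the 5′ end. A peak of 5225 bp at chr7:116029806-116035030 covered 3 of them, and a second peak at chr7:116039149-116040833, also near the divergent gene 1110004F10Rik, lay within 1 kb of the other 2. No peak lay within 1 kb of the 8 internal starts. The 5225 bp peak, the widest linked to the 8 genes, also had the highest total level of them, though not the highest per kb, at 160, 191 and 199 CPM in LacZ-shRNA and 217, 171 and 158 CPM in Yap-shRNA replicates. The groups overlapped fully there. Only 101 of the 36097 peaks (0.281%) were 5 kb or wider, and this was the one linked to these genes.

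Tbx15, at chr3:99240381-99354259 on the plus strand, was the opposite case, since the start that lies furthest 5′ had no peak while both starts further in did. The downstream start at 99253760 had 2 peaks beside it, and the start at 99296510, with the lowest CpG ratio of any open start (0.132), had 1. Eya1, at chr1:14168954-14310235 on the minus strand, was open at its 5′ cluster of starts and again 5409 bp further in, and closed at the single internal start at 14231492. Eya4, at chr10:23102963-23350786 on the minus strand, had a peak of 2341 bp over its 4 most 5′ starts and 1 at an internal coding start, and none at its 3 non-coding starts. Six4 (chr12:73099609-73113456), Maf (chr8:115682942-115707794) and Mafa (chr15:75745490-75748228), all on the minus strand, are compact genes, and their start peaks were 3664, 3328 and 2820 bp wide against a median of 1144 bp for promoter peaks.

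The main comparison asked whether knockdown of Yap changed accessibility at the promoters of these genes. No member's window passed the test. By edgeR's quasi-likelihood test with Benjamini-Hochberg adjustment over all windows, 0 of 8 were called at an adjusted p of 0.05, where 0.0223% of all windows were called (11 of 49366). The count was also 0 at an unadjusted p of 0.05, which 4.9% of all windows passed, and 0 by the likelihood-ratio test, DESeq2 (which gave an adjusted p for 7 of the 8) and limma voom. The groups overlapped in all 8, where 10.1% of all windows had groups that did not overlap. For the 7 windows other than that of Prox1, the 95% intervals given below reach no lower than -0.49 and no higher than 0.23 on the log2 scale. In simulated counts with the spread of these data, 200 windows drawn from the whole table were changed. The test recovered 4.5% of them for a change of 0.5 on the log2 scale and 77.5% for a change of 1. Among windows at large, small changes would thus mostly be missed. The median window held 78.75 counts per library on average, against 10.8 for Prox1 and 276 to 1044 for the other 7 genes. The shares recovered are therefore not those of these 8 windows.

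Six4 and the Eya genes are taken first, as the DNA-binding member and its cofactors. The Six4 window had 35.6, 35.2 and 42.9 CPM in LacZ-shRNA and 35.3, 32.7 and 31.9 CPM in Yap-shRNA replicates. The first 2 LacZ-shRNA values lay beside the highest Yap-shRNA value, and the third stood above the rest. The log2 fold change of Yap-shRNA against LacZ-shRNA was -0.20 (SE 0.14, 95% interval -0.48 to 0.08), with an adjusted p of 0.949. Eya1 had 35.6, 38.1 and 46.1 CPM in LacZ-shRNA and 40.0, 38.1 and 35.1 CPM in Yap-shRNA replicates. Its highest value was again LacZ-shRNA replicate 3 and the other 5 were interleaved, with a log2 fold change of -0.10 (SE 0.14, interval -0.38 to 0.19, adjusted p = 0.971). Eya4 had 65.7, 83.9 and 90.5 CPM against 77.4, 66.9 and 75.2 CPM. Its lowest and highest values were both LacZ-shRNA libraries, and the log2 fold change was -0.13 (SE 0.14, interval -0.41 to 0.15, adjusted p = 0.957).

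The T-box factor Tbx15 had 61.0, 68.2 and 79.9 CPM in LacZ-shRNA and 65.5, 62.1 and 59.9 CPM in Yap-shRNA replicates. The lowest LacZ-shRNA library lay within the Yap-shRNA range, and the log2 fold change was -0.16 (SE 0.13, interval -0.44 to 0.11, adjusted p = 0.951). Of the Maf proteins, Maf had 47.0, 48.4 and 60.8 CPM against 41.7, 48.9 and 45.2 CPM. Yap-shRNA replicate 2 was above 2 of the LacZ-shRNA libraries, and the log2 fold change was -0.22 (SE 0.14, interval -0.49 to 0.06), the lowest fold change of the 8, with an unadjusted p of 0.124 and an adjusted p of 0.946 in edgeR. Mafa had 68.9, 68.9 and 99.2 CPM against 78.1, 73.0 and 67.6 CPM. All of its excess in the LacZ-shRNA mean (79.0 ± 17.5 against 72.9 ± 5.27 CPM, SD, n = 3) came from replicate 3, with a log2 fold change of -0.13 (SE 0.14, interval -0.42 to 0.16).

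Sox6 had 114, 152 and 147 CPM in LacZ-shRNA and 143, 127 and 127 CPM in Yap-shRNA replicates. The LacZ-shRNA libraries held both the lowest and the highest value, and the log2 fold change was -0.05 (SE 0.14, interval -0.34 to 0.23), an adjusted p of 0.984 in edgeR. Prox1, the factor of slow fibres, was the only gene with a positive value, 0.49, but with an SE of 0.45 and an interval of -0.42 to 1.4. It was 0.07 without LacZ-shRNA replicate 3 and 0.74 without LacZ-shRNA replicate 1. That window rests on the 5 to 18 counts per library given above. The peak at its start, with 11.0, 11.0 and 16.8 CPM against 11.4, 12.6 and 15.7 CPM, gave -0.04 (SE 0.20, interval -0.44 to 0.37), so the window and the peak of the same start differed in sign, and neither passed the test.

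**Figure D2:**
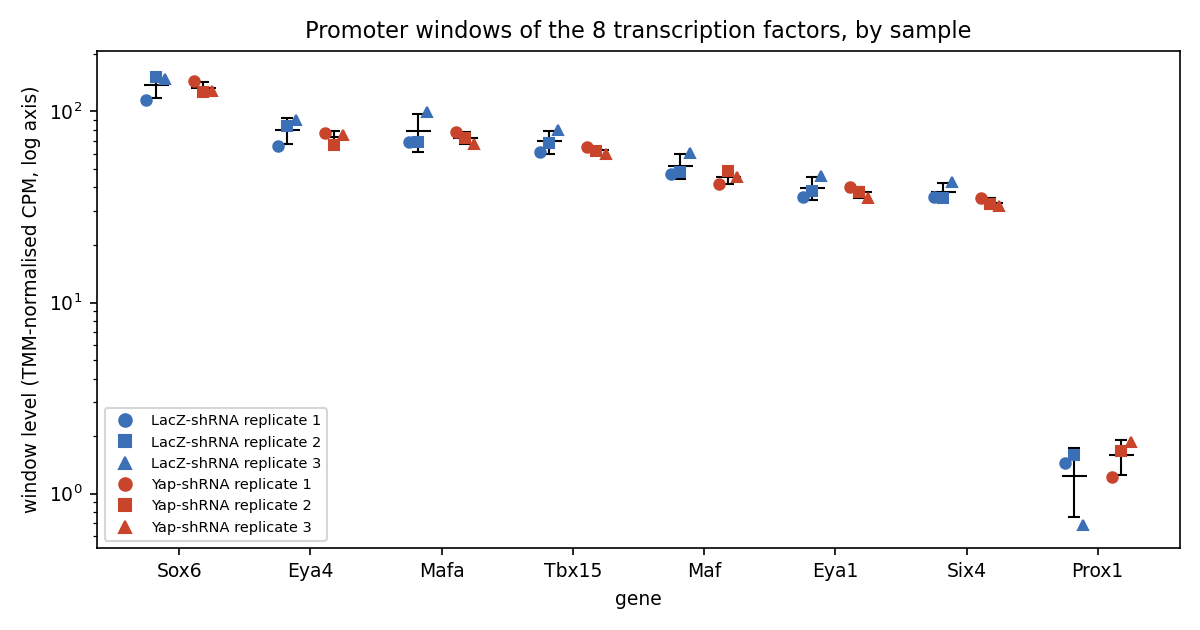
Each point is the promoter window of 1 gene in 1 sample, in TMM-normalised CPM on a log axis, with blue for LacZ-shRNA and red for Yap-shRNA replicates; black bars are the mean ± SD of 3. The colours overlap in every gene, and the triangle of LacZ-shRNA replicate 3 is the highest point in 6 of the 8.

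Over the 8 windows, 7 were lower and 1 higher in Yap-shRNA, with a median log2 fold change of -0.13, beside 52.7% of all windows lower and a median of -0.014. In number of genes lower, that split changed most when LacZ-shRNA replicate 3 was left out. LacZ-shRNA replicate 3 was the highest of the 6 samples in 6 of the 8 genes, and in 14.8% of all windows. Without it, 4 of the 8 were lower and the median was -0.009, with Eya1 at 0.04, Mafa at 0.08 and Sox6 at 0.002. Without LacZ-shRNA replicate 1, by contrast, 7 were lower with a median of -0.26, and 5 of the 8 (Eya4, Tbx15, Six4, Mafa and Maf) had an unadjusted p under 0.05, beside 6.91% of all windows in that fit, the lowest being 0.00944 for Maf, though the lowest adjusted p in edgeR was still 0.452. With scaling by library size alone, in place of TMM factors, 6 of the 8 were lower, the median was -0.07 and that of all windows 0.046.

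**Figure D3:**
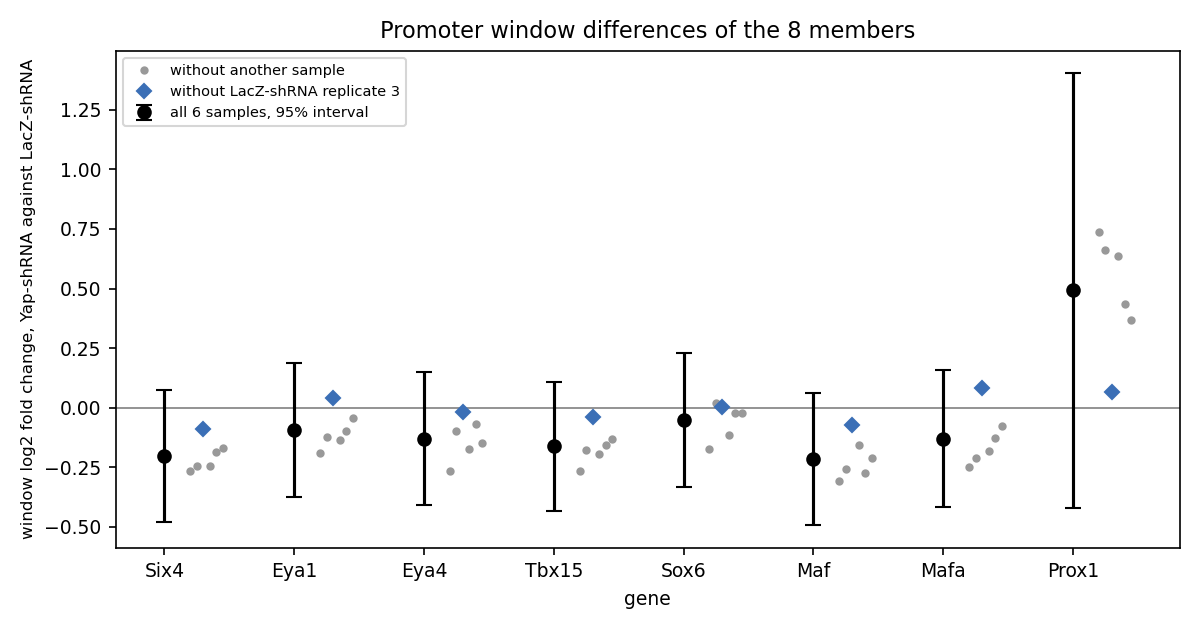
Black points give the log2 fold change of each gene's window, Yap-shRNA against LacZ-shRNA, with its 95% interval from all 6 samples; grey dots and blue diamonds give the value when 1 sample is left out. Every interval spans 0, and leaving out LacZ-shRNA replicate 3 (diamonds) brings all 8 genes to between -0.09 and 0.08.

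The windows whose profile over the 6 samples was nearest to the mean profile of the 8 genes were those of Eef2k, Naa15 and Zswim1, with a root mean square difference of 0.012, 0.013 and 0.019 on the log2 scale among 18369 windows of at least 100 counts on average. Their log2 fold changes were -0.08, -0.08 and -0.10. They are named for the likeness of their values over 6 samples only.

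Regulatory DNA also lies away from gene starts, so the peaks around these genes were examined next. A peak was linked to a gene when it overlapped the gene body or lay within 50 kb of an annotated start, which gave 53 peaks of 36097. Sox6 had 18, Eya4 had 8, Eya1 and Tbx15 had 7 each, Mafa had 5, Six4 had 4, Maf had 3 and Prox1 had 1. Of these, 41 lay within the gene bodies, and 17 lay within 1 kb of an annotated start of any gene, the member or another. The 8 that lay within 1 kb of a start of another gene have an uncertain link to the member. At each gene the tallest peak was at a start, with the exception of Eya1, where an intronic peak at chr1:14189821-14190487 reached 18.9 CPM against 16.3 CPM at the 5′ starts. Per kb of peak, the start of Mafa had 44.6 CPM, and the most accessible Sox6 peak per kb was not at its start but in its last exon, at chr7:115472308-115473724, with 41.9 CPM per kb against 35.0 CPM per kb for the wide start peak.

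The 18 Sox6 peaks lay at both ends of the gene and between. The 117.74 kb nearest the 3′ end held 9 peaks that summed to 223 CPM, and the other 9 peaks, over 314.089 kb from the start inward, summed to 318 CPM. Of the 9 peaks nearer the start, 7 had a higher fitted value in Yap-shRNA, and of the 9 nearer the 3′ end, 4 had.

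Of the 53 linked peaks, 0 were called by edgeR at an adjusted p of 0.05, where 0.618% of all peaks were called (223 of 36097). One was called by the likelihood-ratio test, which called 378 of all 36097 peaks, and 0 by DESeq2 (adjusted p for 45 of the 53, 118 of all peaks called) or limma voom (254 of all peaks called). At an unadjusted p of 0.05 there were 5 by edgeR (9.43%, beside 8.9% of all peaks), 5 by the likelihood-ratio test (beside 9.43% of all peaks), 3 by DESeq2 (beside 5.22%) and 4 by limma voom (beside 8.98%). By edgeR, 3 of these were lower, as were 5.31% of all peaks at that level, and 2 higher (3.59% of all peaks). Groups did not overlap in 7 of the 53 (13.2%, beside 13.3% of all peaks), with 3 lower (6.76% of all peaks) and 4 higher (6.55% of all peaks). In all, 30 of 53 had a lower fitted value in Yap-shRNA (56.6%, exact binomial interval 42.3 to 70.2%, counting error only), beside 50.5% of all peaks, and the median log2 fold change was -0.02 beside -0.0026. That interval treats the peaks as independent, but they share the same libraries and many share a gene (18 are linked to Sox6), so it is likely too narrow. The shares of the linked peaks are near those of all peaks.

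**Figure D4:**
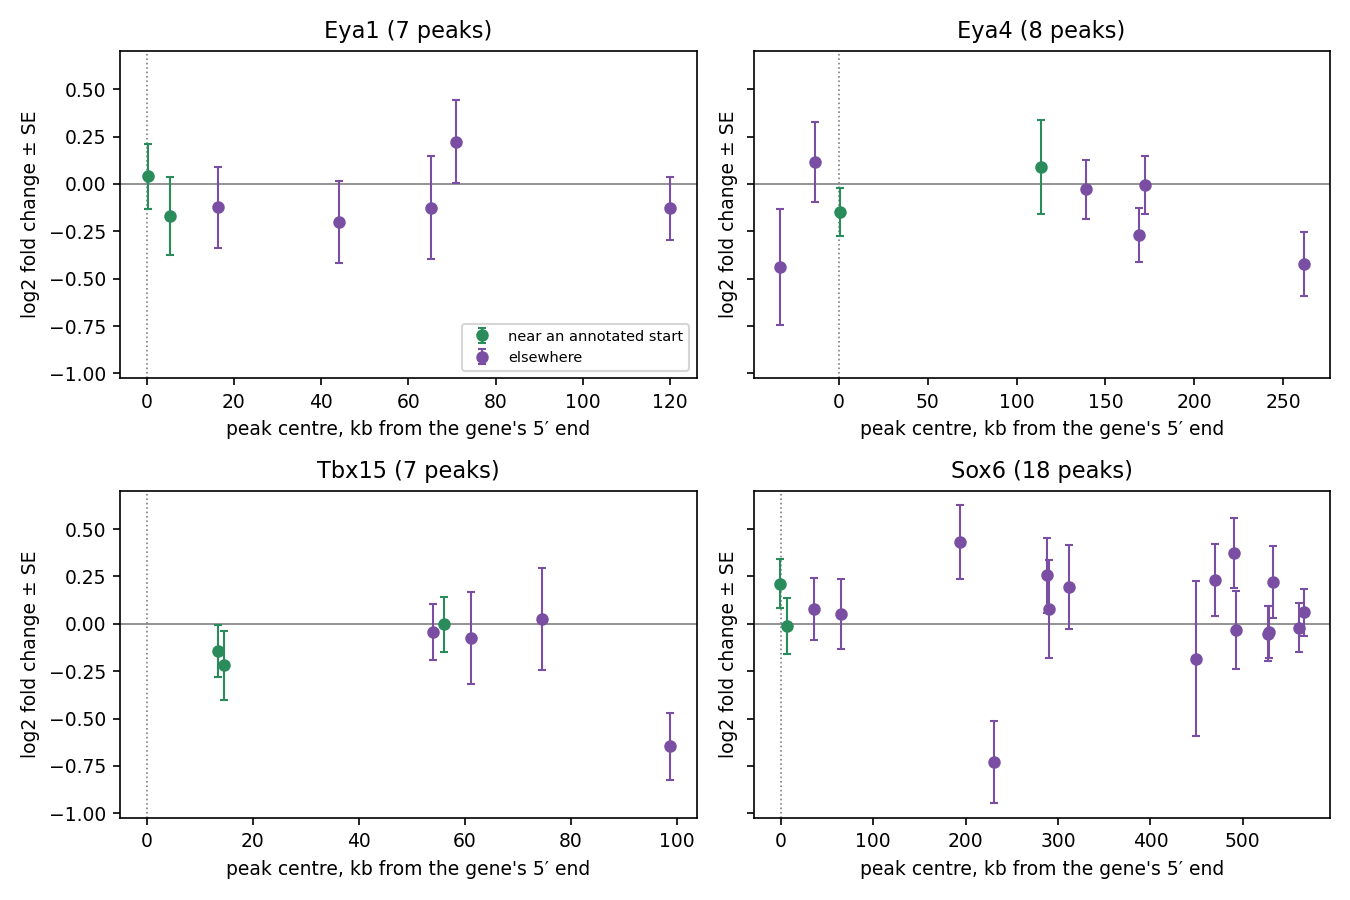
Log2 fold changes (Yap-shRNA against LacZ-shRNA) with their SE for the peaks linked to Eya1, Eya4, Tbx15 and Sox6, placed by the distance of the peak centre from the gene's 5′ end in kb; green points lie within 1 kb of an annotated start. Values near starts stay between -0.22 and 0.21, and the lowest points, -0.73 in Sox6 and -0.65 in Tbx15, lie in introns.

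The linked peak with the smallest p lay in an intron of Tbx15, 98827 bp from the gene's 5′ end, at chr3:99338790-99339627. It had 22.5, 20.4 and 18.0 CPM in LacZ-shRNA and 14.0, 11.7 and 12.7 CPM in Yap-shRNA replicates. Every Yap-shRNA library was below every LacZ-shRNA library. The means were 20.3 ± 2.24 and 12.8 ± 1.15 CPM (SD, n = 3), a log2 fold change of -0.65 (SE 0.18, interval -1.0 to -0.29). The adjusted p of 0.0813 in edgeR missed the threshold, the likelihood-ratio test gave 0.0385, and over all alternatives it ran from 0.0385 to 0.461, with the log2 fold change between -0.75 and -0.51. The other 6 Tbx15 peaks had log2 fold changes of -0.22 to 0.02.

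The second smallest p belonged to an intronic peak of Sox6, 230856 bp from the 5′ end, at chr7:115807630-115808250. It had 14.8, 17.4 and 12.7 CPM in LacZ-shRNA and 9.21, 6.81 and 10.4 CPM in Yap-shRNA replicates. The groups did not overlap, and the log2 fold change of -0.73 (SE 0.22, interval -1.17 to -0.29) was the largest in size of the 53, with an adjusted p of 0.133 in edgeR and of 0.0670 to 0.712 over the alternatives. These sites were accessible in both groups at a low level. Their sequences are shown because they carry the largest differences among the peaks of these genes. Both are on the plus strand of GRCm38, 300 bases each, and capitals mark the only strings of the searched panel that they hold, a SOX string on the opposite strand in the Tbx15 peak (chr3:99339328-99339627) and an AP-1 string in the Sox6 peak (chr7:115807791-115808090).
Tbx15 intron: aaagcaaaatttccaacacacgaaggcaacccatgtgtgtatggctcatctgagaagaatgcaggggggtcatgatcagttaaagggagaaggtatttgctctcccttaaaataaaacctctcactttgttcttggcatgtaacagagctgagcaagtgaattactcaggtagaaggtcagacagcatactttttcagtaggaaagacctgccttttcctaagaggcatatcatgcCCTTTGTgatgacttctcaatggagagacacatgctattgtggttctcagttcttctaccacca
Sox6 intron: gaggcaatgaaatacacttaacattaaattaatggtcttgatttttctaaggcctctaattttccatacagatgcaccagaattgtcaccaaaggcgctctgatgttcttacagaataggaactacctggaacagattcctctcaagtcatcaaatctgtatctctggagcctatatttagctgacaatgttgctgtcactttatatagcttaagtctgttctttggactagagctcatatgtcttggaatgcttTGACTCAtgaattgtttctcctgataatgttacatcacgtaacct

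Sox6 also held the linked peaks that were higher at an unadjusted p of 0.05. At chr7:115844284-115844936, a peak over the exon of a retained-intron transcript 194186 bp from the 5′ end, the values were 10.7, 10.2 and 12.2 CPM in LacZ-shRNA and 16.7, 14.3 and 14.6 CPM in Yap-shRNA replicates. The groups did not overlap, with a log2 fold change of 0.43 (SE 0.19, interval 0.04 to 0.82, adjusted p = 0.477). At chr7:115547743-115548349, in an intron near the 3′ end, the values were 11.0, 14.0 and 14.9 CPM against 20.3, 17.0 and 14.9 CPM. The groups were apart only in the next digit, and the log2 fold change was 0.38 (SE 0.19, adjusted p = 0.557). Sox6 thus had 1 peak lower and 2 higher at this level, none of them past the adjusted threshold.

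The remaining peak of this kind lay downstream of Eya4, in intergenic DNA at chr10:23089047-23089836. It had 24.6, 21.2 and 19.4 CPM in LacZ-shRNA and 18.6, 16.0 and 13.6 CPM in Yap-shRNA replicates. The lowest LacZ-shRNA library lay just above the highest Yap-shRNA library, and the log2 fold change was -0.42 (SE 0.17, interval -0.76 to -0.08, adjusted p = 0.384).

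**Figure D5:**
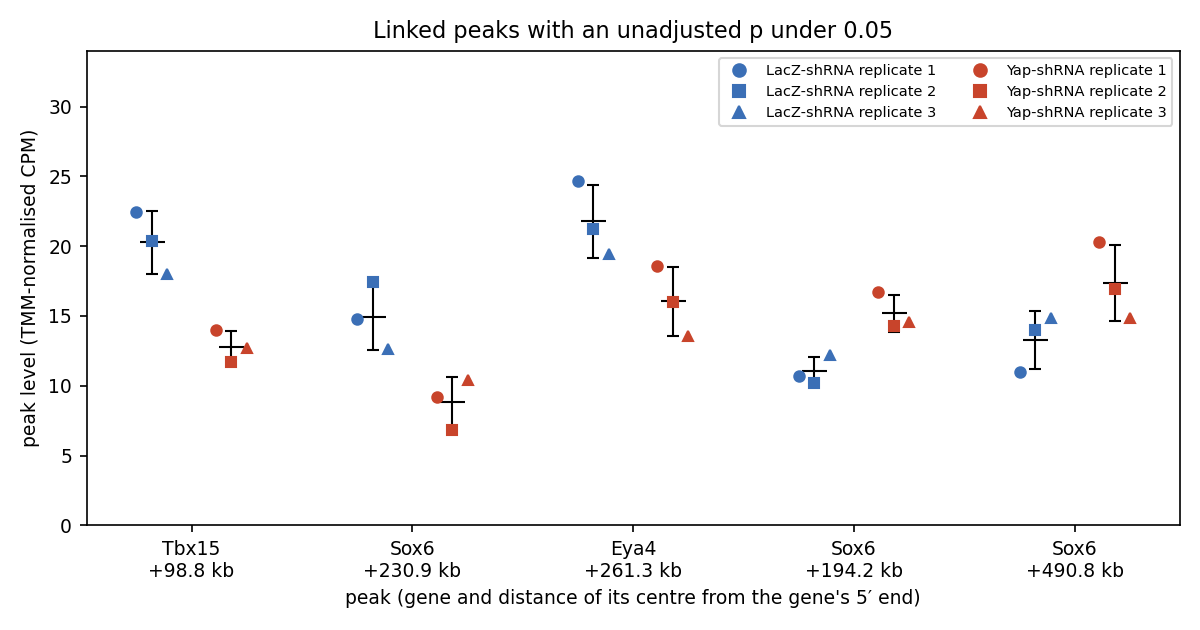
The 5 linked peaks with an unadjusted p under 0.05, in TMM-normalised CPM, by sample; the labels give the gene and the distance of the peak centre from its 5′ end in kb, and black bars are the mean ± SD of 3. Red Yap-shRNA points lie below all blue LacZ-shRNA points in the Tbx15 peak, the Eya4 peak and the first Sox6 peak, and above or level with them in the other Sox6 peaks.

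Among the other genes, the linked peak with the smallest p was in each case not past an unadjusted p of 0.05. For Mafa it was a peak at chr15:75703864-75704785, near a start of Rhpn1, with 21.4, 15.3 and 20.8 CPM against 23.0, 26.3 and 23.3 CPM and a log2 fold change of 0.30 (SE 0.16, adjusted p = 0.595). All 3 Yap-shRNA values were above the LacZ-shRNA values. For Six4 it was a peak near a start of Mnat1, with a log2 fold change of 0.36 (SE 0.22, adjusted p = 0.685). For Eya1 the smallest p came with 0.22 (SE 0.22, adjusted p = 0.863) in an intron, and for Maf with -0.15 (SE 0.13, adjusted p = 0.827) at its start peak. The tallest start peaks had log2 fold changes of -0.03 for Six4 (SE 0.12), -0.15 for Eya4 (SE 0.13), -0.14 for Tbx15 (SE 0.14), -0.01 for Sox6 (SE 0.15) and -0.10 for Mafa (SE 0.14).

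The sequences of the linked peaks were searched, on both strands, for short strings bound by the members' own families and by the partners of Yap. Strings of MEF2 and CTCF were searched as well. The MEF3 string of Six4 and its relatives (TCAGGTT) was in 9 of the 53 peaks (17.0%, beside 15.4% of the 35982 peaks with sequence), and the MAF string (TGCTGAC) in 12 (22.6%, beside 14.1%). SOX strings (ACAATGG or ACAAAGG) were in 8 (15.1%, beside 24.3%). The TEAD string (ACATTCC), for the factors through which Yap acts, was in 5 (9.43%, beside 8.96%), the AP-1 string (TGACTCA) in 4 (7.55%, beside 11.7%), MEF2 strings (CTATTTATA or CTAAAAATA) in 1 (1.89%, beside 3.13%) and CTCF strings (CCACTAGGG or CCAGCAGGG) in 0 (beside 3.89%). The MAF and AP-1 strings can share 4 bases where they meet, peaks differ in width, and a match is not evidence of binding. Of the 5 linked peaks with a TEAD string, 1 was among those with an unadjusted p under 0.05, the Sox6 peak at chr7:115844284-115844936, which was higher in Yap-shRNA. Among all peaks, 8.9% had an unadjusted p under 0.05, and this one was not called (adjusted p = 0.477 in edgeR). It is shown as the only linked peak with both the string and such a p. The 27 bases are on the minus strand, chr7:115844353-115844379, within that exon and with the TEAD string in capitals.
Sox6 exon: acacaccgatACATTCCtgaactttgc

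The T-box string (AGGTGTGA) was in 4 linked peaks (7.55%, beside 3.21%), and all 4 held it in the central 200 bases, where 0.570% of all peaks did. They belonged to Eya4 (an intronic and an upstream peak), Sox6 (the peak in the last exon) and the region of Mafa (a peak within Zc3h3), and none to Tbx15. Their log2 fold changes were -0.01, -0.44, 0.06 and -0.15, none with an unadjusted p under 0.05. The sites are printed because they lie within the central 200 bases of their peaks. The string is in capitals, in its own orientation, which is the minus strand in all 4. They lie at chr10:23178696-23178723, chr10:23383893-23383920, chr7:115472957-115472984 and chr15:75781981-75782008.
Eya4 intron: tgttggcttaAGGTGTGAcctgcttctg
Eya4 upstream: agcaggagccAGGTGTGAggaaagccct
Sox6 last exon: tgctaaaaaaAGGTGTGAtccctctagg
Mafa region: aaagactggcAGGTGTGAgtgtgtgtct

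The start peak of Six4 held 2 MEF3 strings, at chr12:73111631-73111657 within an intron and at chr12:73113326-73113352 within the first exon, both on the plus strand. They are printed because they share the longer string TCAGGTTTC, which was noticed after the matches were seen and which 487 of the 35982 peaks hold (1.35%); no other MEF3 match among the linked peaks has it.
Six4 intron: ttgttcagaaTCAGGTTtcaaaacacc
Six4 first exon: atctggccgaTCAGGTTtcccccaggc

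RefSeq promoters of GRCm38.p6, which run from 250 bases before to 50 after a start, matched 4 of the 8 genes (Six4, Eya4, Sox6 and Prox1) with 12 promoters of 32544. A SOX string was in 5 of the 12, beside 9.31% of all promoters, and 4 of these were among the 6 promoters of Sox6 itself and 1 was at Prox1. The MEF3 string was in 2 of the 12 (1 each in Six4 and Sox6, beside 4.07%), and the TEAD string in 1, at Sox6 (beside 3.85%).

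The wider families of these factors and the genes they act on were read in the same way. Among 21 further windows from the families of Six4, Eya1, Dach1, Sox6, Maf, Prox1 and Tbx15 and related muscle factors, 0 were called by edgeR, the likelihood-ratio test, DESeq2 or limma voom, and by edgeR 2 (by DESeq2 1) had an unadjusted p under 0.05, both lower, beside 3.01% of all windows that were lower at that level. These were Dach1, a corepressor that works with Six4 relatives and Eya proteins, at -0.48 (SE 0.20), and Six2 at -0.33 (SE 0.14), each with an adjusted p of 0.946. Of these, only Six2 had groups that did not overlap. Elsewhere in the list the groups were also apart at Dach2, at -0.34 (SE 0.19, adjusted p = 0.946 in edgeR). Among all windows, 10.1% had groups that did not overlap. The list was split as 10 higher and 11 lower, with a median of -0.014, where 52.7% of all windows were lower.

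Of 16 effectors of fast fibres, 4 were higher and 12 lower with a median of -0.11. Of 14 effectors of slow fibres, 9 were higher and 5 lower with a median of 0.04. Among all windows 52.7% were lower, with a median of -0.014. The summed level of the fast list was 1427 to 1999 CPM in LacZ-shRNA and 1522 to 1757 CPM in Yap-shRNA libraries. That of the slow list was 563 to 706 and 644 to 688 CPM, so the groups overlapped in both lists. None of the 30 was called by edgeR, the likelihood-ratio test, DESeq2 or limma voom, and 0 had an unadjusted p under 0.05 in edgeR, against 1 in each list by each of the other tools, where 5.88% (likelihood-ratio test), 2.62% (DESeq2) and 4.99% (limma voom) of all windows passed. The smallest p in each list belonged to Mylpf, the fast regulatory light chain, at -0.28 (SE 0.14) and to Tnni1, the slow troponin I, at 0.27 (SE 0.13), each with an adjusted p of 0.946 in edgeR. Fast effectors had a median percentile of 98.8 in CPM per kb and slow effectors of 83.9. Whether the lists differ in their change between the groups was not tested.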

How the data were processed

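ATAC-seq libraries of 3 LacZ-shRNA and 3 Yap-shRNA replicates were compared. The deposited values are whole-number read counts, not normalised, which the authors made by mapping paired reads to GRCm38 (BWA 0.7.17), removing duplicates (SAMtools 1.8), calling peaks (MACS 1.4.2-1), keeping peaks found in more than 1 sample and counting with featureCounts 1.5.0, the versions being those in the submitters' processing notes. The lowest row mean in either table is 10. Reads that map to repeats, the transposase offset and fragment lengths could not be examined in counts.

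All rows of each table were fitted with edgeR 4.0.16 in R 4.3.3 (TMM factors, quasi-likelihood test, no covariate, Benjamini-Hochberg adjustment at 0.05 over the whole table), after the script was tested on simulated data. Other scalings and filters, a replicate block, each library left out, DESeq2 1.42.0, limma 3.58.1 (voom) and edgeR's likelihood-ratio test served as alternatives. Window extents came from GENCODE starts of GRCm38, which matched all 49366 rows by identifier, and sequences from the RefSeq GRCm38.p6 genome; 35982 of the 36097 peaks lie on its chromosomes.

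Named were all 8 genes, the peak of smallest p and of highest mean CPM at each, every called peak, and in each wider list the windows that passed or had the smallest p. The windows of Six2 and Dach2, the further peaks with an unadjusted p under 0.05 and the peaks shown for a motif were named after their values were seen. The genes, lists and motif strings were chosen with earlier results of these data known, and 1 window of a wider list is not reported here. Intervals on counts cover counting error only and treat the peaks as independent.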

Additional observations from a re-analysis of the deposited data

How the results depend on the processing

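No window of the 8 genes was called under any alternative, and 1 linked peak (the Tbx15 intron, log2 fold change -0.64) was called under the likelihood-ratio test only. Of 250 alternative values for single windows and peaks, 239 kept their direction and side of the threshold, 10 changed sign and 1 passed the threshold. Over all rows, 11 windows were called against 33 by the likelihood-ratio test, 20 by DESeq2, 23 by limma voom and 7 without the 1% of highest mean count, and 223 peaks against 378, 118 by DESeq2, 136 at a mean count of at least 50 and 103 at an adjusted p of 0.01. With single libraries left out, called windows ranged from 4 (Yap-shRNA replicate 2 out) to 157 (LacZ-shRNA replicate 1 out) and called peaks from 94 (Yap-shRNA replicate 1 or 2 out) to 447 (LacZ-shRNA replicate 3 out). Without Yap-shRNA replicate 1, 5 windows were called, and without LacZ-shRNA replicate 2, 132 peaks. The cause was not tested.

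The signs that changed were those of small values. With library size alone the Sox6 window was at 0.0154 and the Prox1 peak at 0.0939. With 1 library left out, the Eya1 window ran from -0.191 to 0.0395, Sox6 from -0.173 to 0.0190, Mafa from -0.25 to 0.0808 and the Prox1 peak from -0.18 to 0.26. Same-numbered replicates did not deviate together (the correlations of their deviations from the group means were 0.191, -0.121 and 0.092 over windows), so the numbers were not taken as pairs. The replicate block gave 13 windows and 207 peaks called, put the Prox1 peak at 0.0308 and changed no call among the 8 genes or their peaks.

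Levels per kb depend on the window length assumed. With the 5′ window length alone, Eya1 was at 19.4, Eya4 at 38.3, Tbx15 at 33.0, Sox6 at 67.5, Maf at 24.3 and Prox1 at 0.707 CPM per kb, and with unshared length (chosen after seeing the data) Sox6 was at 9.41 and Prox1 at 3.38. The values for the 5′ length divide counts from all starts by the length of 1, so they give no second order of the genes. With unshared length, Sox6 came above Eya4, which was at 8.57 CPM per kb. Linking peaks within 10 or 100 kb gave 43 or 75 peaks, 62.8% or 53.3% of them lower, and leaving out peaks near starts of other genes (also chosen after seeing the data) gave 45, of which 57.8% were lower. Within the central 200 bases, 3.77% of linked peaks held a MEF3 string (beside 5.43% of all peaks), 5.66% a MAF (beside 3.29%) and 1.89% a TEAD string (beside 1.46%). None held a SOX or AP-1 string there, beside 5.20% and 2.62% of all peaks. The Prox1 window is removed by a mean count of at least 50, and ran from 0.0668 to 0.737 with 1 library left out. A formal test for an outlying sample was not made in groups of 3.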
